A study of Rattus norvegicus with 6 samples.

Results

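The CC chemokine ligands described here are *Ccl2*, *Ccl3*, *Ccl4*, *Ccl5*, *Ccl6*, *Ccl7*, *Ccl9*, *Ccl17*, *Ccl22* and *Ccl24*, measured in macrophages sorted from the rat brain after ischemia. They were found by gene symbol in the array annotation, among probe sets that name exactly 1 gene, and make up 10 of the 14217 genes named in this way. Together they had 11 probe sets, and each gene was read at its probe set of highest mean over the 6 arrays.

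CC chemokines are small secreted proteins with a pair of adjacent cysteines near the amino terminus. They bind receptors of the CCR family on leukocytes, draw these cells along a gradient, and many of them share receptors. In the brain, macrophages at the borders, microglia and vascular cells can all release them, and the ligands of CCR2 are known for attracting monocytes to injured tissue.

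Each of the 6 arrays held RNA of CD11b+CD163+ cells sorted from the right hemisphere of 1 adult male Sprague-Dawley rat, cells that the labels name as perivascular and meningeal macrophages. Rats 64, 65 and 66 underwent a 1 h occlusion of the middle cerebral artery on the right side, then 16 h of reperfusion, and rats 63, 68 and 69 were controls without ischemia. All 6 brains passed through the same enzymatic dissociation, density gradient and sort. CD163 is also made by macrophages outside the brain, so the sort does not by itself tell resident cells from recruited ones. The paper examined this by flow cytometry and reports CD163+ cells at a level like that of controls at the same time after ischemia. It also reports that most myeloid cells entering the brain in the first hours lacked CD163. The share of recruited cells on the arrays described here was not tested.

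Values are log2 units after RMA (robust multi-array average), in which 1 unit is a doubling of signal. Fold changes are ischemia minus control, with their standard error (SE). Two-sided p-values came from limma and were adjusted (Benjamini-Hochberg) across all 9928 genes that passed a low-signal filter. Rises and falls are those with an adjusted p under 0.01. Background was set at 7.42, the 90th percentile over 35 genes that other tissues express, with the highest of these values at 8.90. *Cd163*, which encodes the sorting marker, was at 14.11, 14.02 and 13.38 in ischemic rats 64, 65 and 66 and at 12.63, 13.86 and 13.41 in control rats 63, 68 and 69 (limma adjusted p = 0.211). Of 10 measured markers of border-associated macrophages (BAMs) none rose and none fell, with a median log2 fold change of -0.76. The highest value on the array of control rat 63 was only 13.85, where the 5 others reached 14.88 to 14.96, and markers of endothelium summed to 12.89 on it, against 10.86 to 11.30 on the others. Fold changes of the 9 ligands tested are therefore also given without it. Markers of oligodendrocytes summed to 12.63 to 13.65 in controls and to 11.07 to 11.75 after ischemia, and 2 of the 4 measured fell. The part of this difference in the fold changes of the ligands was not tested.

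Of the 10 ligands 9 passed the low-signal filter, and 4 of these rose after ischemia. These were *Ccl17*, *Ccl22*, *Ccl9* and *Ccl6*. None fell. Among all genes tested, 16.8% rose and 5.99% fell. For 3 of the ligands (*Ccl17*, *Ccl9* and *Ccl22*) the log2 fold change was also beyond 2, which was the case for 1.63% of all genes tested in this direction. The 3 ischemic rats lay above all 3 controls in 6 of the 9 ligands, as they did in 35.7% of all genes. The median log2 fold change of the 9 ligands was 0.55, and that of all genes tested was 0.10. With 3 rats in each group the smallest p of an exact permutation test is 0.1.

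Positions upstream of a gene's start are shown for the 4 ligands that rose, to show how far the upstream sequences of genes that rose together resemble each other. RefSeq's table of promoters (assembly GRCr8) held 6 of the 10 ligands, *Ccl6*, *Ccl7*, *Ccl9*, *Ccl17*, *Ccl22* and *Ccl24*. Each sequence is the 250 bases before the listed start, 5′ to 3′ on the strand of the gene, and capitals mark matches to the motifs searched.
Ccl17 (chr19:10209896-10210145, minus strand): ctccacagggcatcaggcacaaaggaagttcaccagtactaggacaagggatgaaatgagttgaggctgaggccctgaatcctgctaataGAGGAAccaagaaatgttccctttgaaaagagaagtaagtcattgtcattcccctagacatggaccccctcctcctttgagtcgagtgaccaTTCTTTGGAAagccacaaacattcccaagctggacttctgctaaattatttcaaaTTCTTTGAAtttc
Ccl22 (chr19:10270360-10270609, minus strand): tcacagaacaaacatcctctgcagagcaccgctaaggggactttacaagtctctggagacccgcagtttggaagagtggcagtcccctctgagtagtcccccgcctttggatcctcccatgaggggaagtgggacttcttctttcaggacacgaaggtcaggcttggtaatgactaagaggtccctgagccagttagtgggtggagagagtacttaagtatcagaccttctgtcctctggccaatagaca
Ccl9 (chr10:68868878-68869127, minus strand): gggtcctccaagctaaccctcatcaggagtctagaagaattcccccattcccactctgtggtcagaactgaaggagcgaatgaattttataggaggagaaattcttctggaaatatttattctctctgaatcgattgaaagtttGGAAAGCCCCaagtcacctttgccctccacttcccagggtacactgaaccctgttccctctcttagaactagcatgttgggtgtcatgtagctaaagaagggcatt
Ccl6 (chr10:68883367-68883616, minus strand): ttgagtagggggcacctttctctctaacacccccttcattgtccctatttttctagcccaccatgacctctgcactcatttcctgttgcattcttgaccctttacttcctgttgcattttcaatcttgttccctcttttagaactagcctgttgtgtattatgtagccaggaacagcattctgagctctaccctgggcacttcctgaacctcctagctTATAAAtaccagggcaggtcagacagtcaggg
For *Ccl17* and *Ccl9* the window overlaps the span that RefSeq lists for the gene, so a transcript with a start further upstream is also listed.

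The motifs were those of NF-kB, a family of factors activated by inflammatory signals, TTCNNNNGAA, the spacing preferred by STAT6, the factor of interleukin-4 signalling, TTCNNNGAA, the spacing of other STAT proteins, TGANTCA for AP-1, ACGTG or GCGTG for the hypoxia response element, GAGGAA for PU.1, a factor of myeloid cells, and TATAAA. All were searched on both strands except TATAAA, which was searched on the strand of the gene. The upstream sequence of *Ccl17* held TTCNNNNGAA at 68 to 59 bases before the start, TTCNNNGAA at 13 to 5 bases and GAGGAA at 160 to 155 bases. *Ccl9* held an NF-kB match at 106 to 97 bases, *Ccl6* held TATAAA at 32 to 27 bases, and *Ccl22* held no match to any motif. The NF-kB motif was found in 6.33% of 33469 promoters of the same length, TTCNNNNGAA in 6.25%, TTCNNNGAA in 7.67%, TGANTCA in 6.34%, ACGTG or GCGTG in 36.7%, GAGGAA in 23.3% and TATAAA in 8.06%. No motif was held by all 4 ligands that rose. NF-kB matches were also present in *Ccl7*, which did not pass the test, so 2 of the 6 upstream sequences had one. *Ccl24*, which did not pass the test either, held TTCNNNGAA overlapping GAGGAA. A match is a description of letters and does not show that a factor was bound.

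*Ccl6* and *Ccl9* had related upstream sequences. A local alignment paired 55 columns, with 45 identical (81.8%), between 124 and 71 bases before the start of *Ccl6* and the last 55 bases before that of *Ccl9*. The alignment score was 58, and the next best of the 15 pairs, *Ccl9* with *Ccl17*, scored 25 over 15 columns. In the gene order of GRCr8, *Ccl5*, *Ccl9*, *Ccl6*, *Ccl3* and *Ccl4* follow each other on chromosome 10, where *Ccl2* and *Ccl7* are also neighbours. *Ccl17* and *Ccl22* lie on chromosome 19 with 1 protein-coding gene, *Cx3cl1*, between them, and *Ccl24* lies beside *Ccl26* on chromosome 12.

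*Ccl17* and *Ccl22* both encode ligands of CCR4, a receptor of type 2 helper and regulatory T cells. *Ccl17* was at 11.43, 12.93 and 12.34 in ischemic rats 64, 65 and 66 and at 8.55, 8.18 and 8.02 in control rats 63, 68 and 69. The lowest ischemic rat stood far above the highest control. All 3 controls were above background, but below the highest value of the genes that set it (8.90). The means were 12.23 ± 0.76 after ischemia and 8.25 ± 0.27 in controls (SD, n = 3 rats each), a difference of 3.98 log2 units (SE 0.35, 95% interval 3.19 to 4.78, limma adjusted p = 0.000312) or 15.8-fold. This was the largest measured fold change of the 9 ligands tested, and without control 63 it was 4.13 (limma adjusted p = 0.00234). The arrays hold RNA of many sorted cells together, so for this and every gene below a change in the share of cells that express it and a change in RNA per cell cannot be told apart.

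*Ccl22* was at 9.06, 10.13 and 9.99 in ischemic rats and at 7.44, 7.38 and 7.44 in controls. The control rats lay within 0.067 of each other and at the level of background, and the groups did not overlap. *Ccl22* averaged 9.73 ± 0.58 after ischemia and 7.42 ± 0.037 in controls (SD, n = 3 rats each), a difference of 2.31 log2 units (SE 0.26, 95% interval 1.70 to 2.91, limma adjusted p = 0.000717) or 4.95-fold, and 2.32 without control 63 (adjusted p = 0.00466). A fold change measured against a level of background understates a rise. A dimmer second probe set of *Ccl22* was at 7.27, 8.07 and 7.73 in ischemic rats and at 7.14, 6.88 and 6.97 in controls. Its groups did not overlap either, but the difference was 0.69 (SE 0.21, limma adjusted p = 0.0288 over single probe sets) and 4 of its 6 values were below background. With the probe sets averaged, the fold change of *Ccl22* was 1.50 (limma adjusted p = 0.0019). *Ccl17* and *Ccl22* were both lowest in rat 64 and highest in rat 65 among the ischemic rats. Relative to the control mean, rats 64, 65 and 66 were higher by 3.18, 4.68 and 4.09 for *Ccl17* and by 1.64, 2.71 and 2.57 for *Ccl22*.

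The receptor of these ligands was not detected in the sorted cells. *Ccr4* was at 5.22, 5.18 and 5.35 in ischemic rats and at 5.19, 5.19 and 5.40 in controls, below background on all 6 arrays. Genes chosen for their position were *Cx3cl1*, which encodes fractalkine and lies between the pair, and the genes on either side. *Cx3cl1* was between 5.37 and 5.57 in ischemic rats and between 5.44 and 5.67 in controls, also below background. *Ciapin1*, a cytosolic iron-sulphur protein assembly factor on the side of *Ccl17*, rose by 1.75 (SE 0.18, limma adjusted p = 0.000571), while *Pllp*, a myelin protein gene on the side of *Ccl22*, was at -1.10 (adjusted p = 0.0643).

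**Figure D1:**
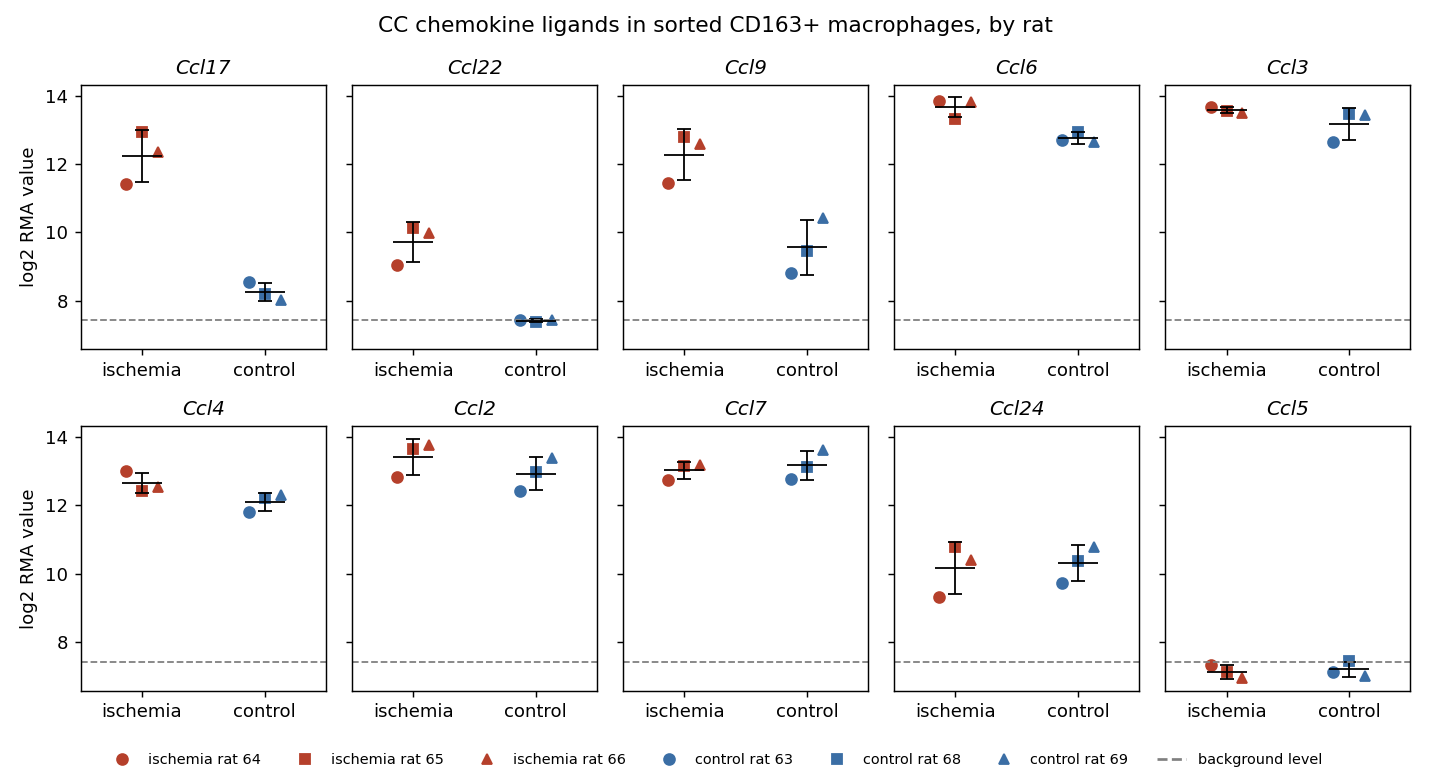
Log2 RMA values of the 10 CC ligands by rat, with the 3 ischemic rats (red) left of the 3 control rats (blue) in each panel, the mean and SD of each group in black and the background level of 7.42 as a dashed line. The groups stand widely apart for *Ccl17*, *Ccl22* and *Ccl9*, while those of *Ccl2*, *Ccl7*, *Ccl24* and *Ccl5* overlap.

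*Ccl9* and *Ccl6* encode ligands that in mouse act through CCR1 on myeloid cells. *Ccl9* was at 11.43, 12.80 and 12.59 in ischemic rats and at 8.82, 9.46 and 10.42 in controls. The groups did not overlap, although the controls covered 1.60 log2 units. The means were 12.27 ± 0.73 after ischemia and 9.57 ± 0.81 in controls (SD, n = 3 rats each), a difference of 2.71 log2 units (SE 0.46, 95% interval 1.65 to 3.76, limma adjusted p = 0.00305) or 6.53-fold. It did not pass the test without control 63 (2.33, adjusted p = 0.0124), control 68, ischemia 65 or ischemia 66 (adjusted p = 0.0108 to 0.0151).

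*Ccl6* was at 13.85, 13.32 and 13.82 in ischemic rats and at 12.69, 12.95 and 12.64 in controls. It was high in every rat, and the groups were apart by 0.37. It averaged 13.66 ± 0.30 after ischemia and 12.76 ± 0.16 in controls (SD, n = 3 rats each), a difference of 0.90 log2 units (SE 0.18, 95% interval 0.49 to 1.31, limma adjusted p = 0.00574) or 1.87-fold. The call was lost in 9 of 18 other settings, among them the arrays centred on ribosomal protein genes (0.46, adjusted p = 0.159), which lowers all fold changes alike,, quantile normalization repeated (0.74, adjusted p = 0.0159) and the omission of control 63 (0.86, adjusted p = 0.0206). Unlike *Ccl9*, *Ccl6* was highest in ischemic rat 64 and lowest in rat 65, although the genes are neighbours. Cross-hybridization between related chemokine transcripts was not tested.

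*Ccl3* and *Ccl4* encode attractants of monocytes and T cells, and that of *Ccl3* binds CCR1. *Ccl4* was at 12.99, 12.42 and 12.54 in ischemic rats and at 11.81, 12.20 and 12.29 in controls. The lowest ischemic rat was 0.13 above the highest control. The log2 fold change of *Ccl4* was 0.55 (SE 0.20, 95% interval 0.10 to 1.002, limma adjusted p = 0.0541), which did not pass the test, and 0.40 without control 63 (adjusted p = 0.142).

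*Ccl3* was at 13.67, 13.54 and 13.50 in ischemic rats and at 12.64, 13.45 and 13.44 in controls. Control rats 68 and 69 were close to the ischemic rats and control 63 was lower. The log2 fold change of *Ccl3* was 0.40 (SE 0.22, 95% interval -0.11 to 0.91, limma adjusted p = 0.185), and 0.13 without control 63 (adjusted p = 0.43). With arrays centred on ribosomal protein genes, which lowers every fold change alike by 0.442, it was -0.046. *Ccl3* and *Ccl4* followed each other closely over the 6 arrays. After each gene was centred on its own mean they differed by a mean of 0.17 log2 units, the smallest difference among the 9 ligands, and *Ccl4* and *Ccl6* by 0.19.

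*Ccl2* and *Ccl7* encode ligands of CCR2, the receptor that draws monocytes out of the bone marrow and into tissue. *Ccl2* was at 12.82, 13.65 and 13.77 in ischemic rats and at 12.42, 12.97 and 13.37 in controls. Ischemic rat 64 lay among the controls, and the groups overlapped. The log2 fold change of *Ccl2* was 0.49 (SE 0.31, 95% interval -0.22 to 1.20, limma adjusted p = 0.23). It was 0.24 without control 63 and 0.79 without ischemia 64 (adjusted p = 0.559 and 0.0452).

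*Ccl7* was at 12.74, 13.14 and 13.17 in ischemic rats and at 12.78, 13.11 and 13.60 in controls. The ischemic rats lay within the lower part of the control range but for rat 64, which was just below it, and control 69 was the highest. Its fold change on the log2 scale was -0.15 (SE 0.23, 95% interval -0.67 to 0.37, limma adjusted p = 0.617), so a change of more than 0.67 in either direction was outside the interval. Without control 63 it was -0.34 (adjusted p = 0.235). *Ccl2* and *Ccl7*, with means over 12.9 log2 units in controls, were thus already far above background in cells of the non-ischemic brain.

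*Ccl24*, which encodes a ligand of CCR3 known for attracting eosinophils, was at 9.30, 10.78 and 10.41 in ischemic rats and at 9.74, 10.37 and 10.78 in controls. Ischemic rat 65 and control 69 were level at the top, ischemic rat 64 was the lowest, and the groups overlapped. Its fold change on the log2 scale was -0.13 (SE 0.39, 95% interval -1.04 to 0.77, limma adjusted p = 0.805), the widest interval after that of *Ccl9* among the 9 ligands. Without control 63 it was -0.41 (adjusted p = 0.467). *Ccl24* and *Ccl7* were the most alike after *Ccl3*, *Ccl4* and *Ccl6*, with a mean difference of 0.25.

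*Ccl5*, which encodes a T cell and monocyte attractant that binds CCR1 and CCR3, did not pass the low-signal filter. It was at 7.33, 7.11 and 6.94 in ischemic rats and at 7.13, 7.45 and 7.01 in controls. All but 1 of these values were below the background of 7.42. The groups overlapped, with a difference of -0.069 (exact two-sided permutation test, p = 0.6).

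**Figure D2:**
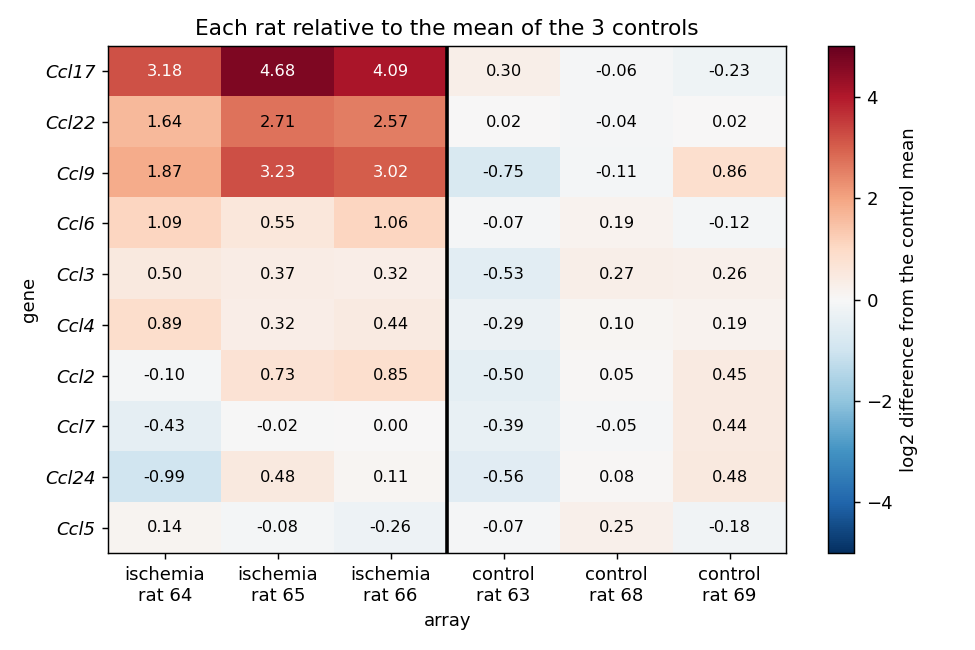
Log2 difference of each rat from the mean of the 3 controls for the 10 CC ligands, with the ischemic rats left of the line and the control rats right of it; red is above and blue below the control mean. *Ccl17*, *Ccl22* and *Ccl9* are above it by at least 1.64 in each ischemic rat, and control 63 is below it in 8 of the 10 ligands.

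The rats did not rank alike across the ligands. Among the ischemic rats, rat 64 was the lowest for 6 of the 9 ligands tested (*Ccl2*, *Ccl7*, *Ccl9*, *Ccl17*, *Ccl22* and *Ccl24*) and the highest for the other 3 (*Ccl3*, *Ccl4* and *Ccl6*). Among the controls, rat 63 was the lowest for 6 ligands (*Ccl2*, *Ccl3*, *Ccl4*, *Ccl7*, *Ccl9* and *Ccl24*) and the highest for *Ccl17*, and rat 69 was the highest for 6. The order of the fold changes was *Ccl17*, *Ccl9*, *Ccl22*, *Ccl6*, *Ccl4*, *Ccl2*, *Ccl3*, *Ccl24* and *Ccl7*. The order uses the brighter probe set of *Ccl22*, with a fold change of 2.31. Its dimmer probe set gave 0.69, and the average of both gave 1.50. Its controls were at background, where a rise is understated, so its place in the order is uncertain. The difference between neighbours in this order was taken within each rat and compared between the groups. The difference was 1.41 for *Ccl22* over *Ccl6* (95% interval 0.069 to 2.75), with the groups apart. It was 1.28 for *Ccl17* over *Ccl9*, also with the groups apart, but its 95% interval (-0.46 to 3.02) included 0. Both had the smallest p that the exact permutation test allows (0.1). The 6 other pairs of neighbours did not differ beyond their spread (exact permutation p = 0.2 to 1). The pairs were set by the same fold changes, so these values are a description.

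The genes most like *Ccl17* over the 6 arrays, by the mean absolute difference after centring, were *Gjb2* (0.20), *Dusp2* (0.21) and *G0s2* (0.26). *Gjb2* encodes connexin 26, a gap junction protein. It was at 8.94, 10.78 and 10.51 in ischemic rats and at 6.82, 6.19 and 5.91 in controls, which were below background. *Dusp2*, a phosphatase of MAP kinases, rose by 3.999 (SE 0.32, limma adjusted p = 0.000253) and *G0s2*, an inhibitor of the lipase ATGL, by 3.93 (SE 0.25, adjusted p = 0.000104).

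Of 15 receptors of CC chemokines on the list, 10 were measured and 6 passed the filter, and none rose or fell. *Ccr1*, which had the highest mean of these and is the receptor bound by the products of *Ccl3*, *Ccl5* and, in mouse, *Ccl6* and *Ccl9*, was at 12.61, 12.41 and 12.40 in ischemic rats and at 11.93, 12.87 and 12.72 in controls (-0.033, limma adjusted p = 0.924). *Ccr2*, the receptor for *Ccl2* and *Ccl7*, was at 11.84, 13.05 and 12.58 in ischemic rats and at 11.68 to 12.50 in controls (0.43, adjusted p = 0.311). Both were far above background in all rats, and the groups overlapped.

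*Ccr3*, the receptor for *Ccl24*, was between 7.20 and 7.71 in ischemic rats and between 6.83 and 7.43 in controls, at the level of background. The atypical receptor *Ccrl2* was at -0.30 (SE 0.26, limma adjusted p = 0.377). *Ccr6*, a receptor of dendritic cells and lymphocytes, was at 8.66, 7.63 and 7.53 in ischemic rats and at 9.95, 9.55 and 8.75 in controls. Its groups were apart, with a difference of -1.48 (SE 0.37, adjusted p = 0.0149), which did not pass the test.

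Of 10 other CC ligands on the list 6 were measured. *Ccl19*, a ligand of CCR7, was the only one to pass the filter, and was at -0.28 (limma adjusted p = 0.109). *Ccl11*, *Ccl20*, *Ccl21*, *Ccl27* and *Ccl28* were below background on all 6 arrays. *Ccl20*, the ligand of CCR6, was at 6.34, 6.62 and 6.57 in ischemic rats and at 5.77, 5.93 and 6.19 in controls, so the groups were apart within the level of background.

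**Figure D3:**
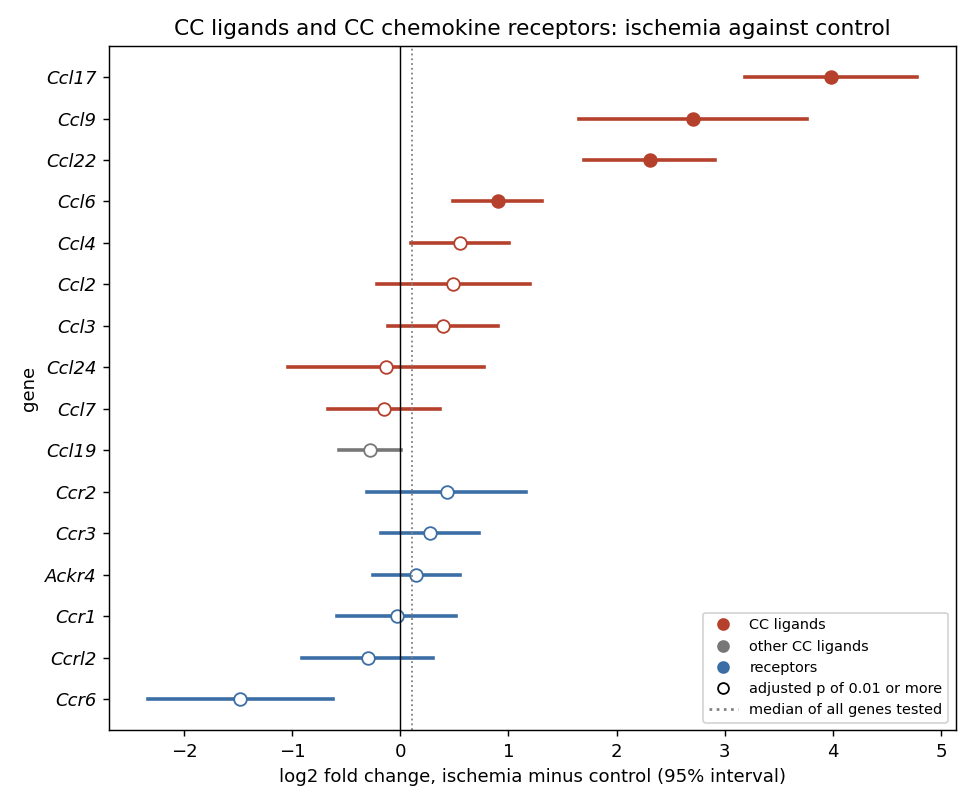
Log2 fold change, ischemia minus control, with its 95% interval from limma for the 9 CC ligands tested (red), *Ccl19* (grey) and 6 receptors (blue). Filled points passed an adjusted p of 0.01, which 4 ligands and no receptor did; the dotted line is the median of all genes tested (0.10).

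NF-kB and interleukin-4 signalling are known inducers of several of these ligands, and their genes were read from lists. Of 15 measured genes of NF-kB and its cytokine targets, 3 rose and none fell, with a median log2 fold change of 0.15, beside 16.8% rises and a median of 0.10 among all genes tested. *Il6* was at 10.76, 10.33 and 9.93 in ischemic rats and at 5.17, 4.78 and 6.58 in controls, which were below background (4.83, SE 0.44, limma adjusted p = 0.00036). *Il1a* rose by 1.39 (SE 0.14, adjusted p = 0.000526) and the kinase *Chuk* by 0.76 (SE 0.12, adjusted p = 0.00241). *Il1b*, the gene of highest mean that did not pass, was at 13.69 to 14.02 in ischemic rats and at 13.46 to 13.94 in controls. Like *Ccl2*, *Ccl3*, *Ccl4*, *Ccl6* and *Ccl7*, it was thus high in the controls.

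Of 16 measured genes of interleukin-4, GM-CSF and STAT6 signalling, 3 rose and 1 fell, with a median of 0.12, and the share of rises was likewise near the 16.8% of all genes. *Arg1*, which encodes arginase 1, rose by 6.52 (SE 0.41, limma adjusted p = 0.000104) against controls below background. *Csf2rb*, the shared receptor chain of GM-CSF, interleukin-3 and interleukin-5, rose by 2.54 (SE 0.17, adjusted p = 0.000118) and *Cish*, a feedback inhibitor induced by STAT5, by 1.44 (SE 0.28, adjusted p = 0.00506). The kinase *Tyk2* fell by 1.09 (SE 0.20, adjusted p = 0.00412). *Stat6* itself was at 10.09, 10.04 and 10.05 in ischemic rats and at 10.26, 10.16 and 10.30 in controls (-0.18, adjusted p = 0.258), and *Jak1*, the gene of highest mean that did not pass, was at 0.08 (adjusted p = 0.693).

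Other cell types and the handling of the cells were read beside the ligands. Of 7 measured microglia markers 1 fell and none rose. All ischemic rats were above all controls for 2 of them and below all controls for 3. Summed, they were at 13.82 to 14.49 after ischemia and at 14.11 to 14.26 in controls, so the groups overlapped. Of 8 measured monocyte markers 6 rose and 1 fell. Their summed level was 15.07, 15.81 and 15.90 in ischemic rats 64, 65 and 66 and 13.89 to 14.25 in controls, so the groups were apart and rat 64 was the lowest ischemic rat. *Vcan* and *Fn1* had the highest means of the list after ischemia (13.50 and 13.48). The paper counts both among the genes upregulated in the CD163+ macrophages. *Itgam*, also on the list, encodes CD11b, on which all cells were sorted. The sum is therefore not a measure of monocyte content alone. Rat 64 was also the lowest for *Ccl17*, *Ccl22* and *Ccl9*, which rose, and for *Ccl2*, *Ccl7* and *Ccl24*, which did not, and the highest for *Ccl6*, which rose. *Ccr2*, on the same list, did not pass the test. *Ly6c*, a surface protein of inflammatory monocytes, was at 10.58 in ischemic rat 64 and at 12.32 or more in rats 65 and 66, against 7.95, 7.22 and 6.69 in controls. The part of microglia and monocytes in the fold changes of the ligands was not tested.

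Granulocyte markers summed to 10.78 to 11.95 after ischemia and to 9.84 to 10.23 in controls. Of the 7 measured, 3 rose (*S100a8*, *Mmp9* and *Lcn2*), and 5 had all ischemic rats above all controls. *Cxcr2* went the other way (-0.50, limma adjusted p = 0.179) without passing the test, and *Mmp8* did not pass the low-signal filter. Dendritic cell markers, whose cells are a known source of *Ccl17* and *Ccl22*, summed to 13.09 to 13.29 after ischemia and to 12.61 to 12.82 in controls. Of the 6 measured, *Itgax* rose (2.47, limma adjusted p = 0.000115). It had the highest mean of the list after ischemia (12.48), and the paper counts it among the genes upregulated in the CD163+ macrophages. The sum is therefore not a measure of dendritic cell content alone. *Flt3* (-1.83, adjusted p = 0.00523) and *Itgae* (-0.81, adjusted p = 0.00734) fell. *Batf3* was at 0.56 with the groups apart (adjusted p = 0.017) and *Fscn1* at -0.55 (adjusted p = 0.0541), and neither passed the test. *Clec9a* did not pass the low-signal filter. The markers thus went in both directions. The paper reports a small share of granulocytes among the CD163+ cells sorted after ischemia. The part of granulocytes and dendritic cells in the rise of the ligands was not tested.

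Of 14 measured early-response genes, which are induced within minutes and also by tissue dissociation, none rose and 2 fell, and 12 had a fold change below 0 (median -0.64). *Fosb* was at -1.71 (SE 0.26, limma adjusted p = 0.00201) and *Nr4a1* at -0.93 (SE 0.16, adjusted p = 0.00365), while *Zfp36*, which had the highest mean of those not past the test, was at -0.12 (adjusted p = 0.727). Their summed level was 16.18 to 16.96 after ischemia and 16.76 to 17.58 in controls, so it was high in both groups. The part of the dissociation in the control levels of *Ccl2*, *Ccl3*, *Ccl4*, *Ccl6* and *Ccl7* was not tested.

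**Figure D4:**
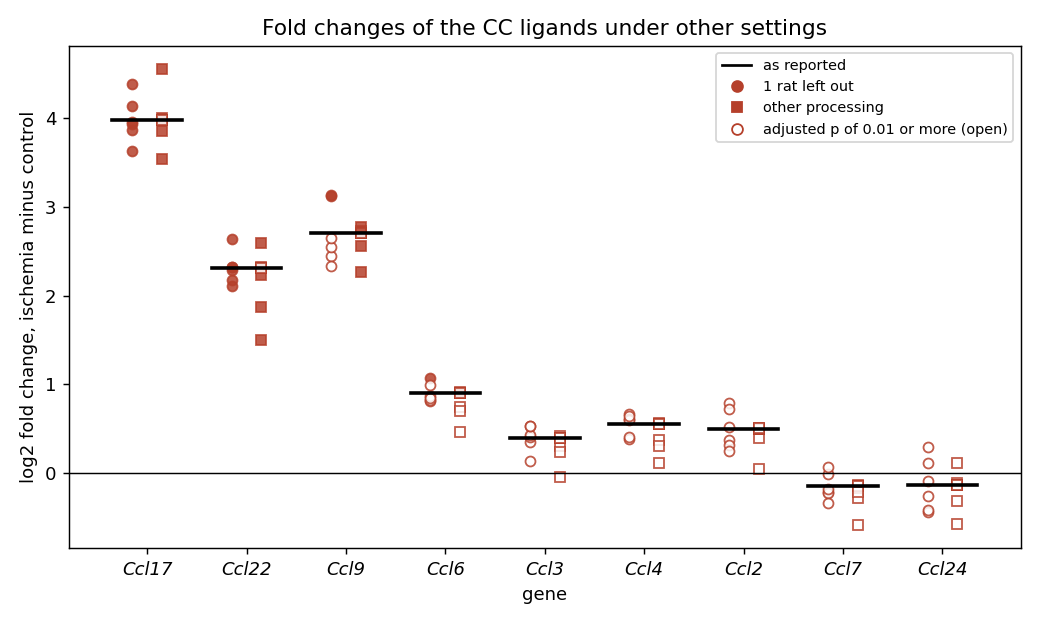
Log2 fold change, ischemia minus control, of the 9 CC ligands tested, as reported (black line), with 1 rat left out (circles) and under other processing (squares); open symbols have an adjusted p of 0.01 or more. *Ccl17* stays between 3.54 and 4.56 and *Ccl22* between 1.50 and 2.64, while *Ccl7*, *Ccl24* and *Ccl3* lie on both sides of 0.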

How the data were processed

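RNA of CD11b+CD163+ cells of 3 ischemic and 3 control rats was hybridized to Affymetrix rat genome arrays, 1 array per rat. The deposited log2 values were made by the authors with RMA, which corrects background, quantile-normalizes and summarizes probes; their processing notes also name limma 3.18 and R 3.3.1. The values were used as deposited. Of 31099 probe sets, 20826 named 1 symbol, 436 several and 9780 none, and 57 were control probe sets. Gene names are those of the array annotation, and all 10 ligands matched RefSeq by gene ID and symbol. Arrays have no read depth, and precision is limited by having 3 rats in each group. The groups were not paired.

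The low-signal filter required a value over 7.16 (the 40th percentile) on 3 or more arrays, since the methods of the study name a low-signal filter without its level. Groups were compared with a linear model and empirical Bayes moderation (limma 3.58.1, R 4.3.3), two-sided, with Benjamini-Hochberg adjustment over 9928 genes. Over these, 1664 genes rose and 595 fell, 162 of them rising by more than 2. Of all genes tested, 5014 had an unadjusted p under 0.05. The test was also run on simulated data with known changes. Promoter sequences are from RefSeq (GRCr8) and were aligned with biopython 1.88.

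The members and the gene lists were chosen with earlier results of these data known. All members were named. From each list other than cell type markers, up to 3 genes with the largest rise and up to 3 with the largest fall past the test were named, with the gene of highest mean not past it. For *Ccl17*, the ligand with the largest change, the 3 genes most like it were named. Markers were named where they define the sorted cells, move with a ligand or go the other way on the same list. *Cx3cl1*, *Ciapin1*, *Pllp* and some receptors and ligands of the lists were named by position, as partners of members or after their values were seen. Alternatives covered the filters, the probe set, the scaling, the moderation, array weights, the thresholds and each rat left out.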

Additional observations from a re-analysis of the deposited data

How the results depend on the processing

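Of 159 values of single ligands under other settings, 138 kept their direction and side of the threshold, 16 kept their direction but no longer passed, and 5 changed sign. *Ccl17* and *Ccl22* passed in 17 of 18 settings each, *Ccl9* in 13 and *Ccl6* in 9. The count of ligands that rose was 4, and 0 without empirical Bayes moderation, where limma called 0 of all genes (5014 had an unadjusted p under 0.05 with moderation). It was 2 to 3 with 1 rat left out, with 2 without ischemia 66, control 63 or control 68, and 3 to 4 otherwise. No ligand fell in any of the 20 other settings. The signs that changed belonged to ligands that did not pass the test. *Ccl24* was at 0.11 with array weights and at -0.44 to 0.30 with 1 rat left out, *Ccl7* at -0.34 to 0.069 with 1 rat left out, and *Ccl3* at -0.046 with ribosomal centring.

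Over all genes, ribosomal centring gave 384 rises and 1398 falls (21.5% rises, median -0.34) and repeated quantile normalization 1291 and 1030 (55.6%, median -0.01), against 1664 and 595 (73.7%, median 0.10) as reported. Ribosomal centring lowers every fold change alike, by 0.442, so it leaves the order of the ligands as it was. Array weights gave 2374 and 1309, an adjusted p under 0.05 gave 2722 and 1377, and a fold change beyond 2 gave 162 and 58. With 1 rat left out the counts were 681 to 1564 rises and 166 to 816 falls. The cause of these shifts was not tested. No paired analysis was possible because the rats of the groups share no replicate numbers.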
